A study of Mus musculus with 11 samples.

Results

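The comparison is of wounded with unwounded epidermal keratinocytes in the RNA-seq libraries labelled *Grhl3*-cKO. Its members were chosen by labelled genotype, treatment and assay, and they are 3 of the 11 samples of the series, 2 wounded libraries and 1 unwounded library. The series also holds 4 RNA-seq libraries from WT keratinocytes, 2 unwounded and 2 wounded, and 4 ATAC-seq peak lists, 1 for each genotype and condition. Mice were C57BL/6J animals of both sexes at 8 weeks of age. In *Grhl3*-cKO mice, Cre driven by the KRT14 promoter deletes a floxed *Grhl3*, so that the deletion is limited to KRT14-expressing epithelium and its descendants. WT controls were littermates that also carried Cre. Skin was wounded with a 4 mm punch through its full thickness, and on day 3 the 1 mm margin of the wound was collected, with distant skin as the unwounded tissue. Keratinocytes were sorted for CD49F (integrin α6), and cells with CD45, CD31 or TER119, which mark leukocytes, endothelium and red cells, were removed. Wounded and unwounded libraries named without a genotype are those labelled *Grhl3*-cKO.

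Epidermal wounds close as keratinocytes at the margin flatten, loosen their contacts and crawl as a sheet, while cells behind them divide. Such cells switch on the stress keratins KRT6, KRT16 and KRT17, small proline-rich proteins, proteases that clear a path, and alarm signals that draw leukocytes. GRHL3 is a grainyhead-like transcription factor needed for the skin barrier in the embryo and for the closure of wounds.

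Counts on genes totalled 13497283 in the unwounded library and 15223569 and 14279568 in wounded replicates 1 and 2. The WT totals ran from 15418631 to 16807451. Values are CPM, a gene's counts scaled by library size after TMM normalization, and differences are wounded minus unwounded on the log2 CPM scale with a prior count of 2. In the unwounded library, a count of 0 allows up to 3 counts, or 0.227 CPM. Intervals and such floors cover counting error only. The unwounded side has no replicate, so no spread can be given for it and no test was made.

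*Grhl3*, the gene targeted for deletion, lies on chromosome 4 from 135541888 to 135573630 (mm10, minus strand). It had 1029 counts in the unwounded library and 1765 and 1491 in the wounded replicates. These are 77.8, 121 and 103 CPM, with a wounded mean of 112 ± 12.5 (SD, n = 2). The WT libraries had 121 and 80.9 CPM unwounded and 109 and 90.2 CPM wounded, so the libraries labelled *Grhl3*-cKO overlapped WT. Counts were summed over the whole gene, and exons inside and outside the deletion cannot be told apart. In the counts, the genotype of these libraries therefore rests on the labels. The study reports that it checked the deletion in such mice by qPCR between the loxP sites and by staining for GRHL3 at the wound front. The differences of 0.63 and 0.40 were below 1, the size required here.

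The unwounded library stood apart from the other 6 in sex. *Xist*, the RNA of the inactive X chromosome, had 14854 counts in it, and 19 and 25 counts in the wounded replicates. The 4 Y-linked genes read had no counts in it, and 2846 and 3589 counts in sum in the wounded replicates. WT libraries had 3 to 32 *Xist* counts and 2580 to 3175 counts on the Y genes. Female and unwounded therefore coincide within the comparison, and sex and wounding cannot be told apart. Whether samples were exchanged was not tested, and all values take the labels as given. Genes on the X and Y chromosomes were left out, which does not remove effects of sex on other chromosomes. The WT unwounded libraries carry Y-linked counts like the wounded ones, and their values are given beside many of the genes named.

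Ribosomal precursor RNA (*Rn45s*) took 3.07% of counts in the unwounded library, the lowest of all 7 libraries, against 5.24% and 3.81% in the wounded replicates. The nuclear RNA *Malat1* had 9454 CPM in the unwounded library, which lay between 6613 and 12151 CPM in the wounded replicates. Across genes, which are not independent replicates, log2 CPM correlated at 0.958 between the wounded replicates and at 0.946 between the unwounded library and each of them. The WT wounded pair correlated at 0.946 and the WT unwounded pair at 0.954. Counted against all 6 other RNA libraries, 242 genes were at least 2-fold lowest and 106 at least 2-fold highest in the unwounded library. The same counts were 97 and 57 in wounded replicate 1 and 60 and 121 in wounded replicate 2, and in WT they ran from 57 to 169 and from 80 to 160.

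Of 24421 genes listed, 14045 passed the expression filter and 13581 of these were not on the X or Y chromosome. A gene was called when each wounded library was 2-fold or more above the unwounded library, or each was 2-fold or more below it. By this rule 1293 genes (9.52%) were called, 773 higher (5.69% of genes tested) and 520 lower (3.83%) in the wounded libraries. The median difference over all genes tested was 0.00. These shares and this median are the background for every list count below, and no list was tested against them. The wounded replicates differed from each other by at least 2-fold for 2197 genes (16.2%). With the unwounded library set against replicate 2 alone, 1525 genes were higher and 948 lower, and against replicate 1 alone 1313 were higher and 1312 lower.

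**Figure D1:**
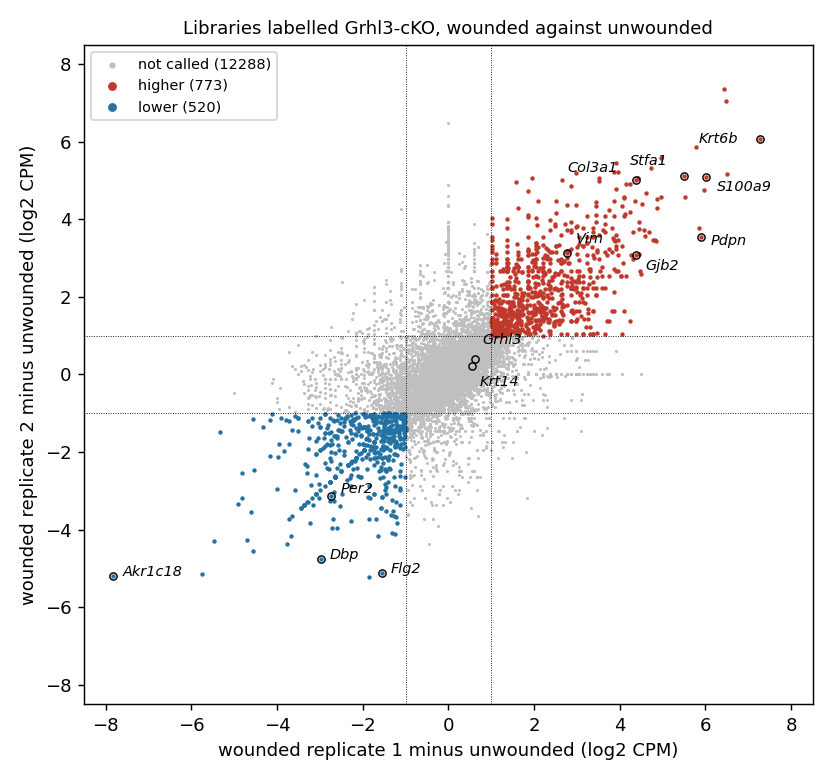
Differences between each wounded library and the unwounded library, all labelled *Grhl3*-cKO, in log2 CPM, with 1 point per gene, 773 higher genes in red, 520 lower genes in blue and dotted lines at 2-fold. *Krt6b* lay at 7.27 and 6.06, *Akr1c18* at -7.82 and -5.20, and *Grhl3* at 0.63 and 0.40.

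Low counts made up much of the result. Of the 1293 called genes, 824 had a mean log2 CPM below 1, as did 2833 of all 13581 genes tested. In the unwounded library, 259 of the higher genes had no counts. Another 91 lower genes had no counts in either wounded library. Among the 8617 genes with a mean log2 CPM of at least 3, 122 were higher (1.42%) and 87 lower (1.01%), and the wounded replicates differed 2-fold for 2.19%. Predicted genes and pseudogenes gave 88 of the higher and 79 of the lower calls. By chromosome, the share called ran from 7.71% on chromosome 2 to 11.3% on chromosomes 3 and 13.

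Most calls did not extend past the WT unwounded libraries. The wounded libraries were at least 2-fold beyond both WT unwounded libraries for 142 of the higher genes (1.05% of genes tested, 18.4% of the higher) and 46 of the lower genes (0.339%, 8.85% of the lower). Without wounded replicate 1 these counts were 472 and 177, and without replicate 2 they were 314 and 300. With both WT unwounded libraries in place of the unwounded one, 323 genes were higher (2.38%) and 119 lower (0.876%). The unwounded library was the lowest of all 7 RNA libraries for 430 of the 773 higher genes, and for 17.9% of all genes tested. It was the highest of the 7 for 328 of the 520 lower genes, against 18.7% of all genes tested. Being low or high in the unwounded library is part of what the rule selects, and these counts show how far the calls rest on that 1 library.

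The WT libraries, which are separate from the 3 compared, give a view of the same genes. Both WT wounded libraries lay above both WT unwounded libraries for 199 of the higher genes (25.7%, against 16.7% of all genes tested) and below them for 71 (9.18%, against 16.2%). For the lower genes, both WT wounded libraries lay below in 104 and above in 77 (14.8%).

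Stress keratins, the intermediate filaments of wounded and hyperproliferative epidermis, were higher in the wounded libraries for 2 of 4 members, with a median difference of 1.56. *Krt6b* (chromosome 15 from 101676023 to 101680287) had 4.23 CPM in the unwounded library and 671 and 292 CPM in the wounded replicates. Its 56 unwounded counts gave a ratio of 114 with a 95% counting interval of 87.7 to 151. The WT libraries had 39.0 and 259 CPM unwounded and 232 and 1078 CPM wounded, so both WT unwounded values exceeded the unwounded library's and the second overlapped the WT wounded values.

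*Krt6a*, its near-identical neighbour, had 326 CPM in the unwounded library and 2467 and 972 CPM in the wounded replicates, against 512 and 1597 CPM in WT unwounded and 1473 and 3410 CPM in WT wounded. Reads shared by the pair may be counted on either gene, and the same holds for the *Sprr2* and stefin A clusters. *Krt16*, a partner of KRT6, reached 1.13 and 0.63 and *Krt17* 0.25 and 0.52, which left both uncalled, and without replicate 2 *Krt16* passed 2-fold and 3 members were higher. For all 4 stress keratins the unwounded library was the lowest of the 7.

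None of 9 basal layer genes was called (median -0.12). *Krt14*, the basal keratin whose promoter drives Cre, had 13212 CPM in the unwounded library and 19418 and 15406 CPM in the wounded replicates, and *Krt5*, its partner, 13759, 15492 and 12299 CPM. *Col17a1*, a hemidesmosome collagen, had 7266, 5881 and 5165 CPM. Leaving out wounded replicate 2 made 1 basal member lower.

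Of 18 spinous and granular layer genes tested, 2 were higher and 1 lower (median -0.12). The suprabasal keratins *Krt1* and *Krt10* differed by -0.36 and -0.11 and by -0.61 and -0.32, and were not called. *Lor*, encoding the envelope protein loricrin, had 12 counts in the unwounded library and 60 and 38 in the wounded replicates. *Cnfn*, encoding cornifelin of the same envelope, had 11 counts, then 59 and 48. Both exceeded the WT unwounded values of at most 18 counts. The lower gene, *Flg2*, encoding a filaggrin-like protein of the granular layer, had 30.8 CPM unwounded and 10.4 and 0.760 CPM wounded, a wide spread, with 0.766 and 0.405 CPM in WT unwounded. Without replicate 1 the lower members numbered 2, and without replicate 2 they numbered 3.

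Small cornified envelope precursors, the SPRR and LCE proteins cross-linked beneath the cell membrane, were higher for 6 of 18 members tested and lower for none (median 1.68, or 1.41 with genes at 0 set to their bound). All 6 belong to the *Sprr* family. *Sprr2h* had 0.831 CPM in the unwounded library and 22.6 and 12.6 CPM in the wounded replicates, a ratio of 21.2 (counting interval 11.8 to 42.8), beside 2.68 and 10.4 CPM in WT unwounded. *Sprr1b* had 43.6, 192 and 107 CPM, beside 51.5 and 130 CPM in WT unwounded, and *Sprr2a3* had 11, 202 and 90 counts. *Sprr2d* had no unwounded counts and 23 and 14 wounded counts, at least 4.26-fold higher in each, with 3 and 50 in WT unwounded. The most abundant member, *Sprr1a*, had 347, 352 and 256 CPM and was not called. Without replicate 1, 12 members were higher, several of them *Lce* genes with counts in replicate 2 only, and 2 were lower without either replicate. Of the 36 members, 18 were not tested for low counts, and 6 had no counts in any library.

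Enzymes of the barrier lipids, which build and export ceramides, showed 1 higher member of 24 and none lower (median -0.02). It was *Sdr9c7*, a dehydrogenase for the lipid envelope, at 7 counts unwounded and 27 and 21 wounded. The most abundant member, *Alox12e*, a lipoxygenase, had 282, 146 and 287 CPM, with the replicates on either side of a difference of 0. Leaving out either replicate gave 2 higher members, and leaving out replicate 1 gave 1 lower.

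**Figure D2:**
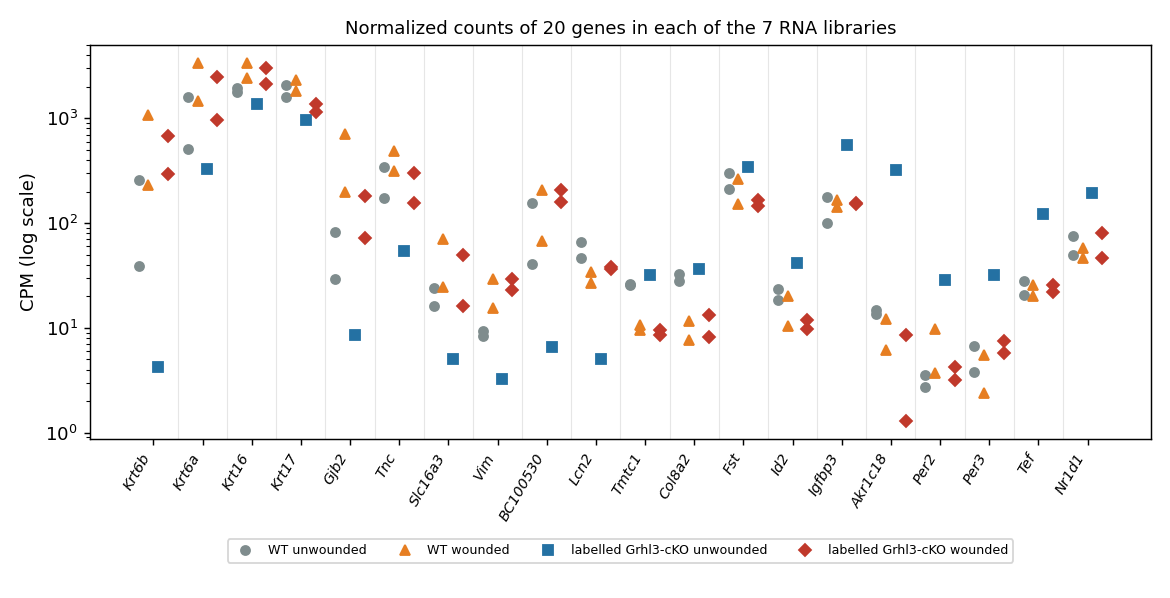
CPM on a log scale of 20 genes in each of the 7 RNA libraries, with WT unwounded as circles, WT wounded as triangles, and the unwounded and wounded libraries labelled *Grhl3*-cKO as squares and diamonds. The unwounded square for *Krt6b* sat at 4.23, below both WT unwounded circles at 39.0 and 259, and the square for *Akr1c18* sat at 322, above both at 14.8 and 13.5.

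Proteases and the plasminogen system, which loosen matrix ahead of the sheet, had 4 higher members and 1 lower of 19 tested (median 0.43). *Plau*, the urokinase activator of plasminogen, had 27.2 CPM unwounded and 67.0 and 70.1 CPM wounded, and *Plaur*, its receptor, had 2.80, 9.43 and 11.7 CPM. WT unwounded libraries had 49.8 and 68.8 CPM of *Plau* and 6.70 and 3.99 CPM of *Plaur*, above the unwounded library for both genes. *Mmp1b*, a matrix metalloproteinase gene, had no unwounded counts and was at least 4.34-fold higher, with 22 and 15 wounded counts, and 13 and 25 in WT unwounded. The stromelysin *Mmp10* went from 3 counts to 15 and 11, a ratio of 3.94 with an interval of 1.21 to 20.3, beside 17 and 5 in WT unwounded.

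*Mmp9*, a gelatinase of migrating keratinocytes, had 2.42 CPM unwounded and 10.8 and 3.25 CPM wounded and was not called. *Serpinb2*, a serpin gene and the most abundant member, had 1278, 1044 and 1163 CPM. Leaving out replicate 2 raised the higher members of the list to 9 and the lower to 3, and leaving out replicate 1 gave 2 lower.

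Among integrins, laminin chains and wound matrix, 2 of 20 genes were higher and none lower (median 0.15, or 0.10 at the bound). *Tnc*, encoding the wound matrix protein tenascin C, had 53.7 CPM unwounded and 299 and 154 CPM wounded, with 174 and 342 CPM in WT unwounded. *Fn1*, encoding fibronectin, had 17.2, 35.3 and 43.7 CPM, with 36.2 and 31.0 CPM in WT unwounded. In both cases the wounded values lay within or near the WT unwounded range and the unwounded value below it. *Itga5*, a fibronectin receptor chain, differed by 1.09 and 0.30. The most abundant member, the matrix glycoprotein gene *Thbs1*, had 5759, 4691 and 4389 CPM. Without replicate 2, 4 members were higher, and with normalization by total counts only 1 was.

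Actin and leading edge genes had 3 higher members of 24 tested (median 0.26), and the unwounded library was the lowest of the 7 for 13. *Pdpn*, encoding the migration-linked membrane protein podoplanin, had 3 unwounded counts and 311 and 58 wounded counts, a ratio of 55.9 with an interval of 19.0 to 272. It had 42 and 83 counts in WT unwounded. *Cnn3*, encoding an actin-binding calponin, had 4.61 CPM unwounded and 10.2 and 9.46 CPM wounded, beyond the WT unwounded values of 3.89 and 4.34 CPM. *Myl9*, a myosin light chain, had 2 counts, then 9 and 18. *Fscn1*, which bundles actin into protrusions, had 34.4, 134 and 55.6 CPM, with differences of 1.96 and 0.69, and was not called. *Tmsb10*, which binds actin monomers, had 38.8, 79.5 and 39.4 CPM, and *Ptk2b*, a kinase of the focal adhesion family, had 60.5, 62.1 and 53.9 CPM. *Actb*, the cytoplasmic β-actin gene and the most abundant member, had 3472, 4619 and 3452 CPM. Without replicate 2, 5 members were higher, and with a prior count of 5 only 1 was.

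Cell junction genes had 3 higher members of 29 and none lower (median -0.09), against 5.69% of all genes tested higher and 3.83% lower. They were gap junction genes and a claudin gene, too few calls to set junction types apart. *Gjb2*, the gap junction gene for connexin 26 (chromosome 14 from 57098600 to 57104702), had 8.46 CPM in the unwounded library and 180 and 72.0 CPM in the wounded replicates. The ratio was 14.9 (interval 12.3 to 18.1), with 29.1 and 82.6 CPM in WT unwounded and 200 and 708 CPM in WT wounded. *Gjb6*, for connexin 30, had 2.80, 8.34 and 11.6 CPM, and the tight junction gene *Cldn4* had 26.5, 61.0 and 63.5 CPM. WT unwounded had 3.96 and 5.15 CPM of *Gjb6* and 96.9 and 22.0 CPM of *Cldn4*, the first above both wounded values. *Cldn1*, a barrier claudin gene, had 507, 356 and 417 CPM and was uncalled. *Cdh1*, encoding E-cadherin, had 1243, 1106 and 1132 CPM, and *Dsp*, encoding desmoplakin, 13106, 13646 and 12443 CPM. Without replicate 2, 5 members were higher and 1 lower.

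EGF family ligands and receptors had 1 lower member of 12 (median -0.20), *Nrg4*, a ligand of ERBB4, at 10.1 CPM unwounded and 4.03 and 4.76 CPM wounded. *Nrg1*, a ligand of ERBB3, differed by 1.72 and 0.61 and was not called. *Errfi1*, an inhibitor of EGFR and the most abundant member, had 419, 336 and 276 CPM. Without replicate 2, 2 members were higher and 2 lower.

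TGF-β and BMP genes had 1 higher and 4 lower members of 22 (median 0.06). *Tgfb2*, encoding a TGF-β ligand, had 25.2 CPM unwounded and 8.88 and 4.56 CPM wounded, with 12.4 and 14.2 CPM in WT unwounded. *Id2*, a target of BMP signalling, had 41.6, 9.70 and 12.0 CPM, with 23.5 and 18.3 CPM in WT unwounded. For both genes the unwounded library was the highest of the 7. *Ltbp2*, which encodes a matrix protein related to TGF-β binding proteins, had 66.7, 25.8 and 12.1 CPM, and *Fst*, encoding the activin inhibitor follistatin, had 340, 165 and 145 CPM. WT unwounded had 38.5 and 27.1 CPM of *Ltbp2* and 304 and 212 CPM of *Fst*. *Inhba*, which encodes the activin A chain, was higher, with 4 counts unwounded and 49 and 15 wounded, and 40 and 5 in WT unwounded. Leaving out either replicate gave 5 lower members.

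AP-1 and early response factors, which are switched on within an hour by stress and by tissue handling, had no called member of 20 (median -0.62). Even so, 19 of the 20 were below the unwounded library in both wounded libraries, and the unwounded library was the highest of the 7 for 17. Their summed level was 30743 CPM in the unwounded library and 21440 and 17492 CPM in the wounded replicates. The WT sums were 16089 and 13867 CPM unwounded and 17238 and 15701 CPM wounded. *Jun*, an AP-1 subunit and the most abundant member, had 3849, 2667 and 2610 CPM. Without replicate 1, 3 members were lower. The part of these genes in the other results was not tested.

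Alarmins, antimicrobial peptides and cytokines had 10 higher members of 27 tested and none lower (median 1.33, or 1.18 at the bound). Their summed level was 751 CPM unwounded, 746 and 991 CPM wounded, and 971 and 882 CPM in WT unwounded. For 9 members the unwounded library was the lowest of the 7. *S100a9*, a calprotectin subunit, had no counts in the unwounded library and 121 and 63 in the wounded replicates, at least 19.2-fold higher in each. Its WT counts were 121 and 125 unwounded and 80 and 287 wounded. *Lcn2*, encoding an iron-sequestering lipocalin, had 5.06 CPM unwounded and 36.6 and 37.9 CPM wounded, beside 46.6 and 65.6 CPM in WT unwounded. Neither gene passed WT unwounded by 2-fold.

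*Il24*, encoding an IL-10 family cytokine made by keratinocytes, was an exception. It had 0.453 CPM unwounded and 10.8 and 10.4 CPM wounded, beyond 3.76 and 2.37 CPM in WT unwounded, with 9.30 and 14.9 CPM in WT wounded. *Cxcl2*, encoding a neutrophil attractant, had no unwounded counts and 42 and 38 wounded counts, at least 9.63-fold higher. It had 10 and 28 counts in WT unwounded. *Saa1*, an acute-phase gene, went from 0 to 30 and 36 counts, beyond 0 and 11 in WT unwounded. The most abundant member, the defensin gene *Defb6*, had 185, 114 and 267 CPM and was not called. Without replicate 1, 15 members were higher, and without replicate 2, 13 were higher and 2 lower.

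Interferon response genes had 2 higher members of 24 tested (median 0.31, or 0.05 at the bound). *Isg15*, a ubiquitin-like modifier, had 0 counts, then 22 and 30, at least 6.18-fold higher. *Oas3*, a sensor of viral RNA, had 0 counts, then 8 and 28, at least 2.41-fold higher. WT unwounded had 4 and 15 counts of *Isg15* and 0 and 19 of *Oas3*. *Irf1*, the most abundant, had 129, 174 and 170 CPM. Without replicate 1, 6 members were higher, and without replicate 2, 4 were higher and 2 lower.

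Cell cycle and DNA replication genes had 1 higher member of 28 (median 0.47). The unwounded library was the lowest of the 7 for 19 members, and 20 were above it in both wounded libraries. *Cenpf*, a kinetochore gene, had 77.1 CPM unwounded and 197 and 168 CPM wounded, with 191 and 245 CPM in WT unwounded. *Mki67*, a marker of dividing cells, had 495, 1049 and 845 CPM, with 1090 and 1540 CPM in WT unwounded, and was not called. The summed level was 2089 CPM unwounded and 3352 and 2573 CPM wounded, and in WT unwounded it was 3341 and 4275 CPM. Without replicate 2, 10 members were higher, and with other normalizations or a prior count of 0.5, 2 were. In these bulk libraries, fewer cells of a kind and less RNA per cell cannot be told apart.

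Glycolysis and hypoxia response genes had 5 higher members of 25 tested and none lower (median 0.89), and 22 were above the unwounded library in both wounded libraries. *Slc16a3*, the lactate exporter, had 66 counts unwounded and 719 and 235 wounded, with 250 and 415 in WT unwounded. *Pfkfb3*, an activator of glycolysis, had 11.3, 44.6 and 32.7 CPM, with 21.4 and 40.9 CPM in WT unwounded. *Ankrd37*, a hypoxia-induced gene, had 0.529, 3.42 and 3.45 CPM. The wounded values of all 3 were near or within the WT range. *Pkm*, pyruvate kinase and the most abundant member, had 524, 1205 and 831 CPM. The sum was 3078 CPM unwounded, 6368 and 4463 CPM wounded, and 4156 and 5334 CPM in WT unwounded. Without replicate 2, 14 members were higher. *Eno1* had no counts in any library.

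No member was called among 14 tested genes of the Notch pathway (median -0.15) or among 18 grainyhead factors and epidermal regulators (median -0.02). *Notch1*, a receptor for differentiation signals, had 745, 737 and 613 CPM. *Arhgef19*, which the study names beside GRHL3, differed by -0.16 and 0.10, and *Klf5*, a regulator of basal cells, had 635, 691 and 580 CPM. Without replicate 1, 2 Notch members were lower, and without replicate 2, 1 was higher. The epidermal regulators had no called member without either replicate.

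Well expressed protein-coding genes, whether in a list or not, were ranked by the smaller of both differences. The first on the higher side were *Krt6b*, *Stfa1*, *Stfa3*, *Gjb2*, *Lcn2*, *Vim*, *Gadl1*, *Cntfr*, *Procr* and *Itga7*. *BC100530*, given with the stefin A cluster below, changed more than *Stfa3* but was not in this ranking. *Stfa3*, a stefin A gene for a cysteine protease inhibitor, had 9.60 CPM unwounded and 171 and 170 CPM wounded, with 81.7 and 257 CPM in WT unwounded. *Procr*, the endothelial protein C receptor, had 29, 334 and 190 counts, with 251 and 338 in WT unwounded. *Itga7*, a laminin receptor chain, had 2.57, 26.3 and 13.5 CPM, with 13.5 and 25.2 CPM in WT unwounded. *Cntfr*, a receptor for ciliary neurotrophic factor, had 2.12, 13.2 and 17.4 CPM, with 6.70 and 8.57 CPM in WT unwounded. For all of the ranked genes but *Gadl1* the unwounded library was the lowest of the 7.

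Only 3 well expressed protein-coding higher genes passed both WT unwounded libraries as well. *Vim*, encoding the mesenchymal intermediate filament vimentin, had 3.25 CPM unwounded and 22.8 and 29.3 CPM wounded, with 8.29 and 9.26 CPM in WT unwounded and 15.3 and 29.3 CPM in WT wounded. *Gadl1*, a decarboxylase gene, had 4.69 CPM unwounded and 30.7 and 35.7 CPM wounded, a ratio of 7.08 (interval 5.47 to 9.31). Its WT values of 3.32 and 12.9 CPM unwounded and 2.56 and 15.9 CPM wounded lay below both wounded libraries. *Slc4a8*, a sodium-bicarbonate transporter, had 14.5, 31.0 and 36.3 CPM, with 10.5 and 12.3 CPM in WT unwounded and 17.3 and 26.2 CPM in WT wounded.

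On the lower side the largest change was that of *Akr1c18*, which encodes an aldo-keto reductase that inactivates progesterone (chromosome 13 from 4132615 to 4150654). It had 322 CPM in the unwounded library and 1.30 and 8.63 CPM in the wounded replicates, beside 14.8 and 13.5 CPM in WT unwounded and 12.1 and 6.18 CPM in WT wounded. The unwounded library alone was high. *Igfbp3*, an IGF-binding protein gene, had 553 CPM unwounded and 157 and 153 CPM wounded, with 176 and 100 CPM in WT unwounded. *Pdk4*, a brake on pyruvate oxidation, had 113, 23.4 and 18.7 CPM, and *Il22ra2*, a soluble IL-22 receptor, had 84.5, 22.9 and 20.4 CPM. WT unwounded had 42.7 and 20.5 CPM of *Pdk4* and 18.7 and 17.5 CPM of *Il22ra2*.

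The other large falls had the same form. *Spock2*, a matrix proteoglycan gene, had 90.4 CPM unwounded and 17.4 and 13.5 CPM wounded, with 15.2 and 12.3 CPM in WT unwounded. *Angptl7*, an angiopoietin-like factor, had 61.3, 12.6 and 4.35 CPM, and *Adamtsl4*, a matrix protein gene, had 46.3, 6.77 and 9.67 CPM. The clock-controlled factor *Tef* had 121, 25.9 and 22.1 CPM and the clock gene *Per3* 31.7, 5.74 and 7.46 CPM. The collagen gene *Col5a2* differed by -2.09 and -2.05. The unwounded library was above both WT unwounded libraries for each of these genes.

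Only 2 well expressed protein-coding lower genes also fell past both WT unwounded libraries. *Tmtc1*, a mannosyltransferase gene, had 32.0 CPM unwounded and 9.50 and 8.63 CPM wounded, with 26.2 and 25.9 CPM in WT unwounded and 9.60 and 10.7 CPM in WT wounded. *Col8a2*, a short-chain collagen gene, had 36.7, 13.2 and 8.22 CPM, with 28.3 and 32.9 CPM in WT unwounded and 11.6 and 7.61 CPM in WT wounded. In both genes the unwounded libraries of either label lay above all 4 wounded libraries.

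**Figure D3:**
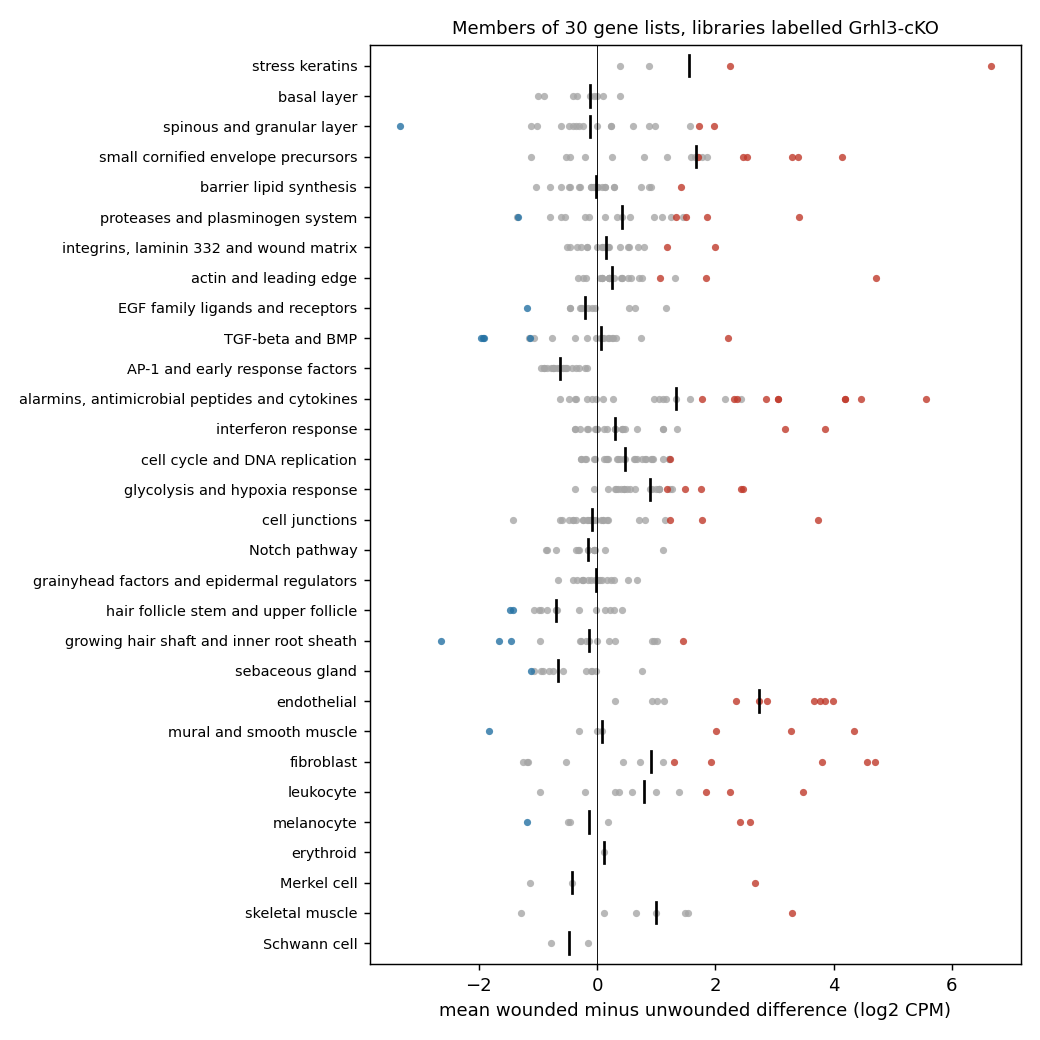
Mean difference between the wounded libraries and the unwounded library in log2 CPM for each tested member of 30 gene lists, with higher members in red, lower in blue, others in grey and a black bar at the list's median. Medians ran from -0.69 for the hair follicle stem list to 2.73 for the endothelial list.

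Hair follicle stem and upper follicle genes had 2 lower members of 15 and none higher (median -0.69), and 10 were below the unwounded library in both wounded libraries. *Cd34*, a bulge stem cell marker, had 64.5 CPM unwounded and 27.1 and 19.6 CPM wounded, and *Lgr5*, a marker of follicle stem cells, had 103, 31.8 and 45.5 CPM. WT unwounded had 34.5 and 51.6 CPM of *Cd34* and 55.6 and 60.7 CPM of *Lgr5*. The most abundant member, *Krt79* of the upper follicle, had 1011, 893 and 1395 CPM, and the list summed to 3677, 2907 and 3368 CPM. Without replicate 2, 6 members were lower, and without replicate 1, 3 were lower and 1 higher.

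Growing hair shaft and inner root sheath genes had 1 higher and 3 lower of 15 tested (median -0.14, or 0.00 at the bound), with a sum of 78.7, 53.0 and 72.6 CPM. *Krt32*, a hair keratin, had 82 counts unwounded and 29 and 26 wounded, *Krt83* had 9, 0 and 0 counts, and *Krt25* had 3, 0 and 0. *Shh* had 0, 2 and 5 counts, too few for a fold. *Tchh*, encoding trichohyalin and the most abundant member, had 56.8, 38.5 and 56.8 CPM, and 11 of the 23 members had no counts in the unwounded library. Sebaceous gland genes had 1 lower member of 12 tested (median -0.66), *Pparg*, a regulator of lipid cells, at 17.9, 8.82 and 7.60 CPM. They summed to 1685, 1419 and 1462 CPM, most of it *Scd1*, a desaturase, at 846, 713 and 774 CPM. A prior count of 5 left no lower sebaceous member and no higher hair shaft member. Leaving out replicate 2 gave 4 lower sebaceous members and 1 higher, and leaving out replicate 1 gave 4 higher and 4 lower hair shaft members. The part of follicle and gland cells in the result was not tested.

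Markers of cells that the sort removes were present at low levels. Of 11 endothelial genes tested 7 were higher (median 2.73, or 2.13 at the bound), against 5.69% of all genes tested. Calls are more frequent at low levels. Among tested genes with a mean log2 CPM below 1, 824 of 2833 were called in either direction. *Pecam1*, which encodes the CD31 used in the sort, was among the 7. The endothelial list was not tested against these shares. The endothelial genes summed to 2.80 CPM in the unwounded library and 16.7 and 19.9 CPM in the wounded replicates. The sums were 6.57 and 7.58 CPM in WT unwounded and 36.3 and 22.9 CPM in WT wounded. *Cdh5*, *Kdr*, *Flt1*, *Tie1*, *Esam*, *Emcn*, *Egfl7* and *Cldn5* had no counts in the unwounded library. *Kdr*, a VEGF receptor, had 36 and 22 wounded counts, at least 6.70-fold higher. *Tie1* had 22 and 26, at least 5.69-fold, and *Flt1* had 35 and 14, at least 4.26-fold. *Eng*, the most abundant, had 15, 19 and 65 counts.

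Fibroblast genes had 5 higher members of 12 tested (median 0.92, or 0.59 at the bound), with sums of 172, 192 and 190 CPM. The most abundant was *Sparc*, a matrix protein gene also expressed outside fibroblasts, at 67.0, 61.7 and 35.1 CPM. *Dcn*, *Lum*, *Fbn1*, *Dpt*, *Mfap5* and *Pi16* had no counts in the unwounded library. *Col3a1*, a dermal collagen, had 4 counts unwounded and 129 and 202 wounded. *Fbn1*, encoding fibrillin, had 0, 34 and 55, at least 10.2-fold higher, and *Dcn*, encoding decorin, 0, 25 and 24, at least 5.81-fold. WT unwounded had 155 and 61 counts of *Col3a1*. Without replicate 2, 3 fibroblast members were lower.

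Mural and smooth muscle genes had 3 higher and 1 lower of 7 tested (median 0.08), with sums of 144, 135 and 109 CPM that were mostly *Notch3*, which keratinocytes also express, at 140, 130 and 98.5 CPM. *Des*, encoding desmin, had 0, 27 and 50 counts, at least 8.14-fold higher, *Acta2*, a smooth muscle actin, 1, 11 and 64, a ratio of 34.1 with an interval of 5.93 to 1364, and *Cnn1* 0, 3 and 10, too few for a fold in replicate 1. *Mylk*, a myosin kinase gene, was lower at 38, 11 and 10 counts. *Myh11*, *Rgs5*, *Pdgfrb*, *Lmod1*, *Kcnj8* and *Abcc9* had no counts in the unwounded library.

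Leukocyte genes had 3 higher members of 10 tested (median 0.79, or 0.66 at the bound), and sums of 269, 222 and 284 CPM that were mostly *Epcam*, which follicle epithelium also expresses, at 253, 194 and 249 CPM. *Ptprc*, which encodes the CD45 used in the sort, *Lyz2*, *Adgre1*, *Cd3e*, *Cd7*, *Fcer1g* and *Tyrobp* had no counts in the unwounded library, and *Cd3e*, *Fcer1g* and *Tyrobp* had none in any library. *Lyz2*, a macrophage lysozyme, had 9 and 40 wounded counts, at least 2.71-fold higher, *H2-Ab1*, a class II antigen gene, 22, 96 and 88, and *Csf1r*, a macrophage receptor, 2, 25 and 12, a ratio of 8.41 with an interval of 2.17 to 72.0. Without replicate 1, 5 members were higher, and without replicate 2, 1 was lower.

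The remaining lists held few tested members. Melanocyte genes had 2 higher and 1 lower of 6 (median -0.14) and sums of 60.5, 35.2 and 31.8 CPM. The pigment genes *Dct*, at 6, 61 and 40 counts, and *Pmel*, at 3, 23 and 29, were higher. *Mitf*, a regulator of pigment cells and the most abundant member, was lower at 700, 373 and 304 counts, and *Mlana* had no unwounded counts. Merkel cell genes had 1 higher of 3 (median -0.43, sums of 2.42, 2.46 and 4.63 CPM), *Krt18*, a simple epithelial keratin, at 3, 23 and 42 counts, with *Krt20*, *Atoh1* and *Sox2* at 0 in every library.

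Skeletal muscle genes had 1 higher of 7 (median 0.99, or 0.66 at the bound, sums of 8.16, 6.01 and 36.0 CPM, most of it the giant sarcomere gene *Ttn*), *Acta1*, a muscle actin, at 0, 5 and 48 counts and at least 1.51-fold higher. Of its 10 members 7, *Ckm* and *Myh4* among them, had no unwounded counts. Neither of 2 tested Schwann cell genes was called (median -0.47, sums of 503, 283 and 341 CPM). Most of each sum was *Egr2*, also an early response gene, at 447, 228 and 294 CPM. The erythroid genes summed to 0.302, 0.137 and 0.691 CPM, with 1 tested member, *Klf1*, uncalled (median 0.11) and no hemoglobin counts in any library. Without replicate 2, 2 melanocyte members were lower, without replicate 1, 4 muscle members were higher and 1 lower, and without either, 1 Merkel member was lower. With a prior count of 0.5, 2 muscle members were higher and 1 Merkel member lower. The part of other cell types in the result was not tested.

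The ATAC-seq peak lists labelled *Grhl3*-cKO give a readout that the rule did not use. They hold 29364 peaks unwounded and 22474 wounded, 1 list each, so that no spread can be given, and they differ in length. A promoter, taken as 1000 bases either side of a gene start, overlapped a peak for 67.6% of all genes tested in the unwounded list (Wilson 95% interval 66.8% to 68.3%) and 57.1% in the wounded list (56.3% to 58.0%). Among higher genes a peak was found for 37.7% (34.4% to 41.2%) in the unwounded list and for 265 of 758 (31.6% to 38.4%) in the wounded list. Among lower genes the shares were 42.9% (38.7% to 47.2%) and 36.1% (32.0% to 40.3%). Called genes thus had fewer promoter peaks than all genes tested, in both directions and both lists.

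Expression level differs between these sets. Among genes with a mean log2 CPM of at least 3, promoters with a peak made up 78.6% and 66.0% of all tested, 59.8% and 51.6% of higher and 63.2% and 51.7% of lower genes. A promoter peak in the wounded list only was found for 5.28% of higher, 2.53% of lower and 2.54% of all genes tested. A peak in the unwounded list only was found for 8.05% of higher and 9.36% of lower genes, and for 1748 of the 13483 genes tested that have a promoter. Named higher genes differed in peak status. *Gjb2* and *Krt6a*, both higher, had a promoter peak in the unwounded list only, at 3.61-fold and 3.91-fold enrichment over local background. The higher genes *Plaur*, *Il24*, *Sprr2a3*, *Slc4a8* and *Pmel* also had a promoter peak in the unwounded list only. *Fn1*, *Kdr* and *Flt1* had one in the wounded list only, at 4.52-fold, 4.92-fold and 3.52-fold. *Akr1c18*, 4.57-fold and 4.67-fold, and *Vim*, 4.30-fold and 4.03-fold, had one in both lists, and *Krt6b* and *Grhl3* in neither.

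Promoter sequence was read in windows from 250 bases before to 50 after each RefSeq gene start (GRCm38.p6), with a gene counted if any of its windows held a motif on either strand. The GRHL core was searched as AACCGGTT, AACCAGTT, AACTGGTT, AACAGGTT and AACCTGTT, and AP-1 as TGAGTCA and TGACTCA. A GRHL core was held by 209 of 10538 tested genes with a window (1.98%), 11 of 531 higher genes (2.07%) and 9 of 373 lower genes (2.41%). An AP-1 motif was held by 5.06% of all, 8.29% of higher and 5.36% of lower genes. Among genes with a mean log2 CPM of at least 3 the AP-1 shares were 4.46%, 6.94% and 2.86%. A match is a description of the sequence and not evidence of binding.

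Promoters of 3 higher genes are shown because they hold these motifs, with the motif in capitals. *Gadl1* lies on chromosome 9 (chr9:115909205-115909504, plus strand) and *Gjb6* on chromosome 14 (chr14:57133562-57133861, minus strand), each with a GRHL core. *Cldn4* (chr5:134946885-134947184, minus strand) holds AP-1 motifs and had promoter peaks at 4.30-fold in the unwounded and 3.94-fold in the wounded list.
Gadl1: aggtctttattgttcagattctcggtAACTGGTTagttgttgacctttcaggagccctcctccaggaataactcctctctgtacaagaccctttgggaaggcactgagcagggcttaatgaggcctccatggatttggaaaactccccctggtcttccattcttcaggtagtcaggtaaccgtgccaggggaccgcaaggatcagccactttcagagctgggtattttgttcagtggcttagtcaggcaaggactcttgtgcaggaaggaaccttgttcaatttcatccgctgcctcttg
Gjb6: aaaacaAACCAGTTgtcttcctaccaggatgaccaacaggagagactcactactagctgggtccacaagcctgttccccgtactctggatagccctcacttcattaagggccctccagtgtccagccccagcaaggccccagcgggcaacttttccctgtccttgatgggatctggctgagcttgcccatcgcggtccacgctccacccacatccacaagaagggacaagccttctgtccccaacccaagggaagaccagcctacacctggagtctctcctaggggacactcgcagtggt
Cldn4: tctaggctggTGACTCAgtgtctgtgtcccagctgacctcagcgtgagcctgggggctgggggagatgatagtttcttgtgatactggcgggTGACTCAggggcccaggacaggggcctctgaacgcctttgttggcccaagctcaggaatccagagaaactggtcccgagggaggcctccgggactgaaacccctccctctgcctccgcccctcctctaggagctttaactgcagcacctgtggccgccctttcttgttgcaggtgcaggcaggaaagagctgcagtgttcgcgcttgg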

How the data were processed

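For RNA-seq the authors deposited whole-number counts per gene symbol, without normalization. The submitters' notes name FastQC and kallisto with mm10, but the tables end in tallies typical of a read counter, so which tool made the counts is not known. Ambiguous reads were 1.34% to 1.45% and reads without a unique alignment 3.46% to 4.74% of the counts, and both were left out. Strandedness is not stated, so reads of overlapping genes may be shared. For ATAC-seq the authors deposited a fold enrichment over the local background for each MACS2 broad peak, which is a ratio, and a −log10 q-value.

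Genes were kept by edgeR's filterByExpr over 7 libraries in 4 groups and normalized by TMM. Genes on chromosomes X and Y were then left out. A gene was called when both wounded libraries differed from the unwounded library by at least 2-fold (log2 CPM, prior count 2). No p-value was computed, since the unwounded side is 1 library, whose labels give different replicate numbers. Ratios of counts carry exact binomial 95% intervals, and a gene at 0 was set against a floor of 3 counts per library. Where the interval's lower limit was smaller than the fold over that floor, the limit is given.

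Symbols were matched to GENCODE M21 (23376), to synonyms (685) or to RefSeq (265), and 95 were unmatched. Among genes tested, 26 have no chromosome and were kept. Promoter overlaps were counted with bedtools 2.31.1.

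Genes were named by rule: those the study names for its RNA-seq, the 10 that rose most and the 10 that fell most, ranked by the smaller of both differences, among protein-coding genes with a mean log2 CPM of at least 3, the same among genes beyond both WT unwounded libraries (3 and 2 met it), and in each list the most abundant member and up to 3 called members per direction. Not every gene that meets these rules is reported. Members and lists were chosen with earlier results of these data known. *Xist*, *Rn45s*, *Malat1*, *Mmp9*, *Saa1*, *Sprr1b*, *Pecam1*, the genes named only as having no counts, the clock and stefin A lists and the E-box and D-box motifs were added after their values were seen.

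The alternatives were other normalizations, filters, prior counts and thresholds, X and Y genes kept or left out earlier, predicted genes left out, each wounded replicate left out, and stricter peaks and motifs. Normalization ran in edgeR 4.0.16 with DESeq2 1.42.0 as the alternative (R 4.3.3). Tables were handled with pandas 2.3.3 and numpy 2.4.6, intervals came from scipy 1.17.1, and figures were drawn with matplotlib 3.10.9, all under Python 3.11.15.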

Additional observations from a re-analysis of the deposited data

Results flagged for a closer look

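*Xist* was left out with chromosome X. The 1 unwounded library of the *Grhl3*-cKO label held 14854 counts of it, and no other library more than 32. It stands out as a signal in genes the comparison leaves out.

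For 4 named genes the wounded libraries of each label lay wholly to 1 side of its unwounded libraries, and that side was opposite in WT. *Lcn2* differed by 2.85 on average in the libraries labelled *Grhl3*-cKO and by -0.87 in WT, *Sdr9c7* by 1.42 and -0.43, and *Fbn1* by 4.57 and -0.51. *Tgfb2* differed by -1.96 in the libraries labelled *Grhl3*-cKO and by 0.32 in WT. These differences between the labels were not tested. In WT unwounded *Fbn1* had 57 and 41 counts, while the unwounded library labelled *Grhl3*-cKO had 0, so that its average difference depends on the prior count. All 4 values rest on that 1 unwounded library.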

How the results depend on the processing

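Under RLE normalization, total counts, the 3 libraries labelled *Grhl3*-cKO alone, a prior count of 0.5, X and Y genes kept or left out before normalization, and predicted genes left out, the 4 counts of called genes stayed within 1.5-fold of the reported ones. So they did with *Rn45s* left out of library sizes, an alternative chosen after seeing the data.

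Leaving out a wounded replicate, which drops 1 of the requirements, gave 1313 to 1525 higher and 948 to 1312 lower genes, and 314 to 472 and 177 to 300 beyond both WT unwounded libraries. With at least 10 counts in each of the 3 libraries, which tests fewer genes, there were 283 higher and 211 lower genes, and 25 and 10 beyond WT. A 4-fold threshold gave 278 and 117, and 39 and 7. Without a filter 791 genes were lower, and with a prior count of 5, 27 lower genes lay beyond WT. For these 2 alternatives the cause was not tested. With the WT unwounded libraries as the control 323 genes were higher and 119 lower, and with a mean log2 CPM of at least 3, 122 and 87. Both were chosen after seeing the data.

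Promoter peak shares of all genes tested, unwounded then wounded list, were 65.9% and 55.8% with promoters of 500 bases either side, 56.3% and 51.3% with a −log10 q-value of at least 2, and 41.5% and 32.5% with an overlap of at least 500 bases. With the last 2 settings they were 29.2% and 29.7%, then 17.8% and 16.6%, for higher genes, and 32.2% and 29.6%, then 22.4% and 16.2%, for lower genes. Each of these settings asks for more than the reported one. AACCGGTT alone was held by 0.294% of all, 0% of higher and 0.536% of lower genes, since fewer spellings count.

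For 122 named genes under 4 settings of normalization and prior count, 0 values of called genes changed sign, 434 moved by less than the spread of the wounded replicates and 54 by more. No paired analysis was possible because no test was made and the unwounded side has 1 library. Depth limits genes near 0.227 CPM in that library, where a fall cannot be told from counting error. Large rises from that level were called, as for *Pdpn*.

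Every difference rests on 1 unwounded library, with *Xist* where the wounded ones have Y-linked counts. Beside WT unwounded it had high early response and clock genes, low stress keratin genes and some low alarmin genes. It was also the lowest of the 7 RNA libraries for 19 of 28 cell cycle and DNA replication genes tested. The same held for 16 of 25 glycolysis and hypoxia response genes and 13 of 24 actin and leading edge genes, against 17.9% of all genes tested. Sex, animal, time of collection, sorted cell mixture and wounding cannot be told apart in that library. With WT unwounded as the control, genotype joins them. The deletion could not be read from counts summed over the gene.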

Other observations

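Clock genes were examined after *Tef* and *Per3* had been seen among the largest falls. Of 19 genes of the circadian clock and its output, 11 were lower and 1 higher in the wounded libraries labelled *Grhl3*-cKO (median -1.28), and the unwounded library was the highest of the 7 RNA libraries for 13. The clock repressor *Per1* had 529 CPM in the unwounded library and 223 and 145 CPM in the wounded replicates, with 186 and 135 CPM in WT unwounded and 261 and 127 CPM in WT wounded. *Per2*, its relative, had 28.9, 4.24 and 3.18 CPM, and WT libraries had 2.74 to 9.78 CPM. *Dbp*, a clock output factor, had 16.6, 1.98 and 0.483 CPM, and the nuclear receptor *Nr1d1* had 195, 80.0 and 46.9 CPM. All 4 were highest in the unwounded library.

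The activators stood the other way. *Arntl*, which encodes BMAL1, had 37.4 CPM unwounded and 73.5 and 76.5 CPM wounded, differences of 0.97 and 1.03, and was not called. *Npas2*, a partner of BMAL1, was higher, with differences of 1.81 and 1.25. Both were lowest in the unwounded library. Over the settings tried, the number of lower clock genes ran from 9 to 12. Times of collection are not given, and their part was not tested.

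Clock factors bind the E-box CACGTG and the D-box, searched as TTATGTAA, TTACATAA and TTACGTAA on both strands. In the promoter windows an E-box was held by 5 of 16 clock genes and by 11.4% of all genes tested, and a D-box by 1 of 16 and by 0.769%. Windows of 3 lower clock genes (RefSeq, GRCm38.p6) are shown because they hold these letters, in capitals. They are *Per1* (chr11:69098699-69098998, plus strand) and *Ciart* (chr3:95882179-95882478, minus strand) with E-boxes, and *Per3* (chr4:151044616-151044915, minus strand) with D-boxes. *Ciart*, a repressor of the clock, was lower at 31, 12 and 16 counts.
Per1: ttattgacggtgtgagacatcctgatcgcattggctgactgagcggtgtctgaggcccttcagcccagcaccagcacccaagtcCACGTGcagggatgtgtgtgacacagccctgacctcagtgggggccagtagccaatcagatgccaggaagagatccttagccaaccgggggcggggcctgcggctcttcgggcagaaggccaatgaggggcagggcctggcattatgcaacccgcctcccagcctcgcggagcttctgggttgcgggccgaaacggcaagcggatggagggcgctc
Ciart: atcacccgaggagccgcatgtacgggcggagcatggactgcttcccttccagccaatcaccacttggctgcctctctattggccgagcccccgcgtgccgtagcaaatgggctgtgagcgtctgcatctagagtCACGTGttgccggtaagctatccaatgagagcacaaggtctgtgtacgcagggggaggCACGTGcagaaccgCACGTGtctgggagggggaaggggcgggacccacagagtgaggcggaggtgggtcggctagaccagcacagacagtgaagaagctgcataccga
Per3: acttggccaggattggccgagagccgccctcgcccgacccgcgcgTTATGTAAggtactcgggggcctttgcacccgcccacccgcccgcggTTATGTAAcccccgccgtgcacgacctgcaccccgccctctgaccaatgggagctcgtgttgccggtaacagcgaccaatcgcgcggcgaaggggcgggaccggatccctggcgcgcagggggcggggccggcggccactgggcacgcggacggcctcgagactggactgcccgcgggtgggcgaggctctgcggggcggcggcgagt

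The stefin A cluster on chromosome 16, which encodes cysteine protease inhibitors, was also examined after its values were seen. Of 5 members tested, 4 were higher (median 4.77, or 4.32 with genes at 0 set to their bound). Their summed level was 17.1 CPM in the unwounded library and 421 and 360 CPM in the wounded replicates, and it was 128 and 444 CPM in WT unwounded and 147 and 455 CPM in WT wounded. *BC100530* had 6.50, 206 and 158 CPM, and *Stfa1* 0.680, 36.6 and 28.0 CPM. The WT sums did not follow wounding, and replicate 1 was the lower in both WT groups. Genes of the cluster are close copies, and assignment of reads among them is uncertain.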
